A study of Mus musculus with 15 samples.

Results

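Quaking (gene symbol Qk) and its relatives of the STAR family of RNA-binding proteins, Khdrbs1, Khdrbs2, Khdrbs3 and Sf1, were followed in the mouse auditory nerve after loud noise. Members were all probe sets that the platform annotation paired with 1 of these 5 symbols alone. They are 5 of the 18193 genes so named and gave 21 of the 45037 probe sets that are not array controls. Qk had 7 probe sets, Khdrbs1 had 7, Sf1 had 5, and Khdrbs2 and Khdrbs3 had 1 each. The series title names Quaking and loss of myelin in this nerve, and the comparisons ask how these genes stood against unexposed animals at 4 times after the exposure, and from one time to the next.

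Expression was measured on 15 Affymetrix arrays, 3 in each of 5 groups of adult CBA/CaJ mice, a strain kept for its good hearing. Controls had no noise exposure. The others spent 2 h in noise of 106 dB SPL, an octave band from 8 to 16 kHz, and were taken immediately afterwards or 1, 7 or 14 days later, with animals aged 5 to 12 weeks. Each array held nerve tissue pooled from both ears of 1 animal, so the arrays of a group are separate animals. The tissue was the modiolus, the bony core of the cochlea with the nerve, the cell bodies of its neurons and the surrounding bone, and in such bulk tissue fewer cells of a type and less RNA per cell cannot be told apart. The 3 controls were all female and the 3 animals at 1 day all male, so noise and sex cannot be told apart in the direct comparison of these groups. The other noise groups held 2 females and 1 male each.

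STAR proteins bind single-stranded RNA through a KH domain flanked by conserved stretches, and they steer splicing, export, stability and translation of their targets. Quaking is best known from myelinating glia: mice with the quaking viable mutation have too little myelin and tremble. It recognises an ACUAA core with a shorter second site nearby in the messages it controls, among them those of myelin proteins. Its own transcript is spliced into alternative last exons, which give isoforms that stay in the nucleus or work in the cytoplasm, so probe sets placed at different ends of the gene can report different isoforms. Sf1 is the splicing factor that first recognises the intron branch point, whose best sequence holds the same ACUAA letters. Khdrbs1 encodes Sam68, a widely expressed splicing regulator that is phosphorylated by Src-family kinases. Khdrbs2 and Khdrbs3 encode its relatives, which are found mainly in brain and, for Khdrbs3 (T-STAR), also in testis.

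The stretch before the annotated Qk start is shown because all 7 Qk probe sets belong to a gene with 1 start in the promoter table used here. It is the 250 bases at chr17:10319362-10319611 on the minus strand (RefSeq, GRCm38.p6), written from its upstream end to the base before the start, and capitals mark GC boxes, the letters GGGCGG or their reverse complement CCGCCC.
Qk promoter: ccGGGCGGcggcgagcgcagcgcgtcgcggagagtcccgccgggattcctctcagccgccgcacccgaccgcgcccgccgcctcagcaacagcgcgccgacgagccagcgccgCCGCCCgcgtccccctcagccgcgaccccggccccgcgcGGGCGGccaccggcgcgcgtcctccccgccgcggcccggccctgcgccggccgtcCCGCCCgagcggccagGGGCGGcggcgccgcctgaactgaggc
This window held 5 GC boxes, a motif found at least once in 33.0% of 32536 windows of the same length. Its G and C content was 84.8%, against a median of 52.4% over all windows, and 52 CG pairs lay in it. A search on both strands found 0 matches to the cyclic AMP response element TGACGTCA (in 1.56% of windows), 0 to its shorter core TGACG (17.9%), 0 to the AP-1 letters TGANTCA (6.73%), 0 to TATAAA (12.3%) and 0 to CCAAT (33.8%). TGACG lies inside TGACGTCA, so these searches overlap. A match or its lack describes these letters in this window only. Of the 5 genes, 3 were found in the promoter table.

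Values are log2 intensities as deposited, so a difference of 1 is a doubling of signal, and the brightness of different probe sets cannot be set against each other because their probes bind with different strength. Array medians lay between 5.87 and 5.92. Percentiles among all probe sets are given below only as a sign that signal was present, and they do not rank cell types. The Schwann cell list, with 7 of its 9 genes measured, had a median percentile of 97.3 and the spiral ganglion neuron list one of 95.9. Mbp of compact myelin was at 13.93 and Snap25 of synapses at 13.43. Oligodendrocyte genes (median percentile 71.4), which mark the central end of the nerve, were also present, as were genes of bone, macrophages and hair or supporting cells. A probe set counts as called at an adjusted p under 0.05 in limma, with Benjamini-Hochberg adjustment over all 45037 probe sets of a comparison. Errors beside differences are standard errors of that fit, and errors beside means are SDs over n = 3 arrays.

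Of the 21 probe sets, 20 lay above the lowest 25% of all probe sets by mean. The exception was Khdrbs1 1438461_at, at 2.52 on average and in the lowest 0.913% of the array, and Khdrbs1 1418630_at, at 4.21, lay just above the limit of 4.16. The other Khdrbs1 probe sets had means between 7.83 and 9.56. Qk probe sets had means between 7.75 and 11.31, of which 3 were above the 97th percentile, and Sf1 probe sets lay between 5.86 and 12.37. Khdrbs2 (6.60) and Khdrbs3 (7.88) each rest on 1 probe set. In Affymetrix names, the ending _a_at marks a probe set shared by several transcripts of a gene, while _s_at and _x_at mark probes that can also bind transcripts of other genes, which applies to Khdrbs2 and to several Khdrbs1 and Sf1 sets. The annotation links 1417073_a_at to a curated Qk transcript, while the sources used here do not say which isoforms the other Qk probe sets read.

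The Qk probe sets did not all change alike from immediate to 1 day, by a test of unequal change given below. That test called Qk at no time against control. Of 7, 1 was called higher than control immediately and another at 1 day, and these were the only members called in any comparison. Both calls against control ended with sex as a term. With any difference among the 5 groups tested at once (moderated F test), 2 of 7 Qk probe sets passed and 0 of the 14 others, against 4.07% of all probe sets. These 2 were 1451179_a_at (adjusted p = 0.00244) and 1425597_a_at (adjusted p = 0.00254). Next in order were 1441964_at (adjusted p = 0.184) and 1429736_at (adjusted p = 0.202), both of Qk.

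**Figure D1:**
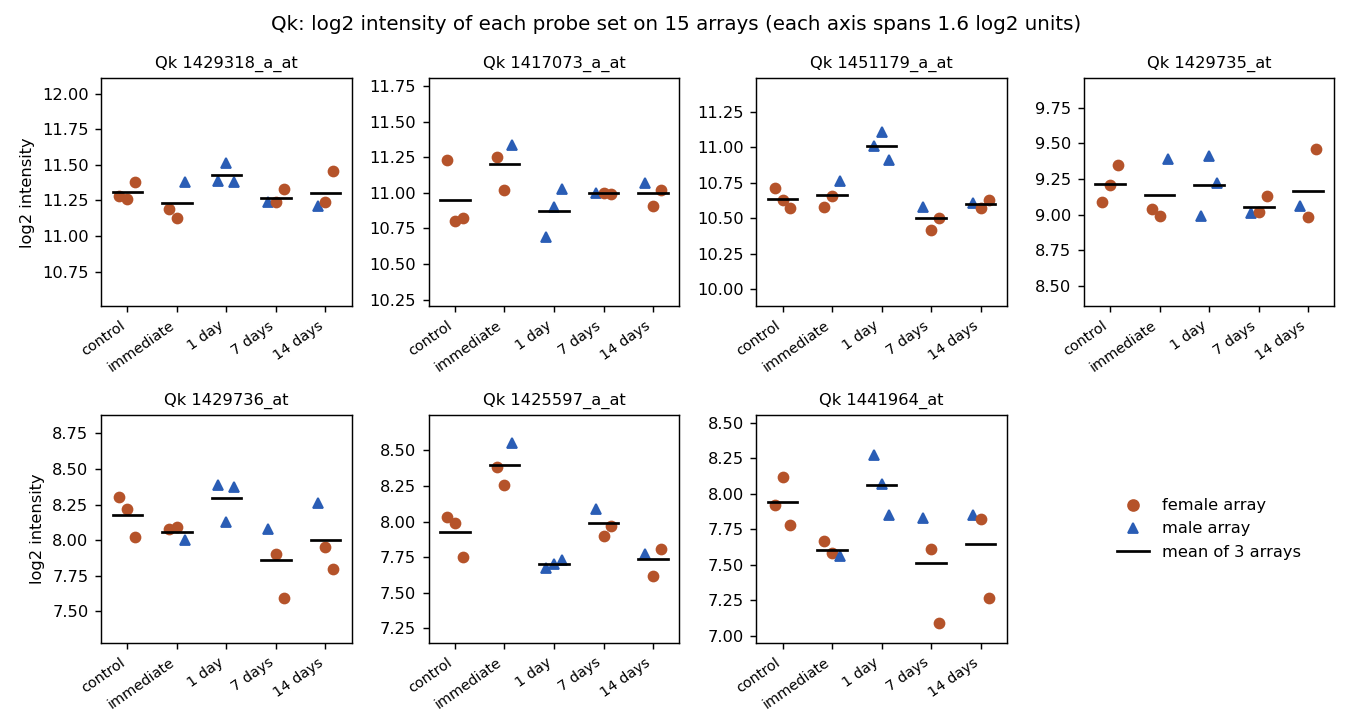
Log2 intensity (vertical axis) of each Qk probe set on 15 arrays by group (horizontal axis), with 3 arrays per group as points, females as circles, males as triangles and group means as bars. For 1425597_a_at the immediate arrays stand above all others and the 1-day arrays are at 7.67 to 7.73, while for 1451179_a_at the 1-day arrays, at 10.91 to 11.11, stand above all others.

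Immediately after noise, 1425597_a_at was raised. Its values were 8.03, 7.99 and 7.75 in controls and 8.38, 8.26 and 8.55 immediately after noise. They were 7.67, 7.70 and 7.73 at 1 day, 8.09, 7.90 and 7.97 at 7 days, and 7.77, 7.62 and 7.81 at 14 days. The 3 immediate arrays were the highest of all 15, and the 1-day arrays lay below every control. The rise was 0.47 ± 0.092 over control (1.39-fold, adjusted p = 0.0356), and 1 of 21 members was called in a comparison in which 0.413% of all probe sets were. By level the order was immediate, 7 days, control, 14 days and 1 day. The immediate group did not overlap 7 days, whereas 7 days and control (0.063 ± 0.092), and control and 14 days, overlapped and gave no call (-0.19 ± 0.092 for 14 days, adjusted p = 0.692).

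The early call depended on single arrays and on the fit. With sex as a term the rise was 0.42 (adjusted p = 0.0687), and between the 2 immediate females and the 3 female controls it was 0.40 (adjusted p = 0.358). Dropping control replicate 2 (0.51, adjusted p = 0.0867) or 3 (0.39, adjusted p = 0.165) ended the call, as did dropping immediate replicate 1 (0.48, adjusted p = 0.0748) or 3 (0.40, adjusted p = 0.223), or, at an unchanged 0.47, 1-day replicate 2 (0.0523) or 3 (0.0506) or 14-day replicate 1 (0.0502). The direction held in each of these fits.

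By 1 day the same probe set had fallen. Between immediate and 1 day 1425597_a_at fell by 0.70 on the log2 scale, with a standard error of 0.092 (adjusted p = 0.000809). The 3 arrays of 1 day lay below the 3 immediate ones by at least the gap from 7.73 to 8.26. With sex as a term the change was -0.79 (adjusted p = 0.00119), and with each array left out it lay between -0.77 and -0.62 and was always called, with adjusted p up to 0.00726. Against control the 1-day value was -0.22 ± 0.092, which was not called (adjusted p = 0.300), and the later step from 1 to 7 days was 0.29 ± 0.092 (adjusted p = 0.0901).

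A different Qk probe set was high at 1 day. For 1451179_a_at the values were 10.71, 10.63 and 10.57 in controls, 10.58, 10.66 and 10.76 immediately, and 11.01, 11.11 and 10.91 at 1 day. At 7 days they were 10.58, 10.42 and 10.50, and at 14 days 10.61, 10.57 and 10.63. All 3 arrays of 1 day lay above the other 12, whose groups overlapped or touched. The rise over control was 0.37 ± 0.064 (29.5% higher, adjusted p = 0.00942), 1 of 21 members in a comparison with 1.14% called. The order of levels was 1 day, immediate, control, 14 days and 7 days, and none of the differences of the last 4 groups tested here was called, with control to 7 days at -0.14 ± 0.064 the largest.

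The 1-day peak of 1451179_a_at was also seen against its neighbours in time. From immediate to 1 day it rose by 0.34 ± 0.064 (adjusted p = 0.00793), so that 2 of 21 members were called where 3.88% of all probe sets were, 1 higher (1.73% of all) and 1 lower (2.15%). From 1 to 7 days it fell by 0.51 on the log2 scale, with a standard error of 0.064 (adjusted p = 0.000587), the 1 member called where 4.66% of all probe sets were. The share of members called at this step was thus near the background.

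Outside the 1-day group, neither sex reached this level. The 3 male arrays of the other groups read 10.58 to 10.76 for 1451179_a_at and the 9 female arrays 10.42 to 10.71. All lay below the lowest 1-day male at 10.91. These 3 males were all exposed to noise and no control was male, so sex and noise cannot be told apart against control. With sex as a term the rise over control was 0.28 and was not called (adjusted p = 0.177), while the steps from immediate to 1 day (0.28, adjusted p = 0.0463) and from 1 to 7 days (-0.45, adjusted p = 0.00812) were. The call against control also ended without control replicate 3 (0.34, adjusted p = 0.0628) or 1-day replicate 2 (0.32, adjusted p = 0.0723). Both steps between times stayed called with any 1 array left out, at adjusted p up to 0.0474 and 0.00590.

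Several macrophage markers rose in the same group. Of 13 probe sets for 8 macrophage genes, 6 were called higher at 1 day than in controls and 0 lower, with a median of 0.50 against -0.01 over all probe sets. Those called were of Cd68, Aif1, C1qa and, at several probe sets, C1qb, and none was of Csf1r, Cx3cr1, Cd14 or Ctss. In that comparison 1.14% of all probe sets were called. Their mean log2 level ran from 8.27 to 8.41 at 1 day, from 7.40 to 7.57 in controls, from 7.36 to 7.58 immediately, from 7.29 to 7.95 at 7 days and from 7.45 to 7.69 at 14 days. All 8 genes had signal, the lowest on average being Aif1 at 5.63. Schwann cell genes had 0 of 18 probe sets higher and 1 lower at 1 day (Ncmap, a protein of noncompact myelin, at -0.32 ± 0.073), and oligodendrocyte genes had 0 of 15 called. Of 18 probe sets for spiral ganglion neurons, 1 was higher at 1 day than in controls, of Uchl1 (0.53 ± 0.083), and 0 lower. From immediate to 1 day, where 3.88% of all probe sets were called, 5 of these 18 fell, of Nefl, Nefm, Nefh and Syt2. Of the same 18, 2 rose, of Uchl1 and Prph. The bone list had a mean level of 8.28 to 9.89 in controls, 7.98 to 8.99 immediately and 7.37 to 7.95 at 1 day. At 7 days it ran from 7.98 to 8.70 and at 14 days from 7.64 to 8.27. The 14-day arrays thus also lay below the controls. Median differences from control were -0.25 immediately and -0.83, -0.61 and -0.68 at 1, 7 and 14 days. At 1 day 1 of 9 probe sets was called lower, of Dmp1 (mineralized matrix). The part of these cell types in the Qk values was not tested.

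**Figure D2:**
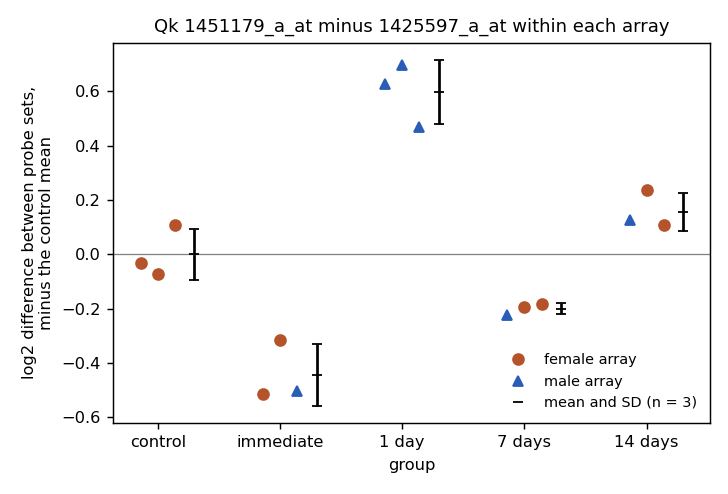
Log2 difference between Qk probe sets 1451179_a_at and 1425597_a_at within each array, relative to the control mean (vertical axis), by group (horizontal axis); circles are female and triangles male arrays, and bars give mean and SD of 3. Immediate arrays lie below and 1-day arrays above those of every other group.

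Because the 2 called probe sets were called against control at different times, their log2 difference within an array was also followed. Relative to the control mean, the difference of 1451179_a_at minus 1425597_a_at was -0.51, -0.31 and -0.50 on the immediate arrays and 0.63, 0.70 and 0.47 on the 1-day arrays. It was -0.22, -0.19 and -0.18 at 7 days and 0.13, 0.24 and 0.11 at 14 days, while controls spread from -0.07 to 0.11. The immediate and 7-day arrays thus all lay below the controls and the 1-day arrays all above them. This pair was chosen after its values were seen, so these differences are a description.

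A test across all genes asked the same without choosing a pair. It compares the change of each probe set with the changes of the other probe sets of its gene (limma diffSplice) and was run on 7211 genes with several probe sets above the lowest 25%. The test treats the probe sets of a gene as independent, though they are read on the same arrays. With group means removed, Pearson r among Qk sets ran from -0.72 to 0.91, so its p-values can be too small or too large. Between immediate and 1 day the Qk probe sets changed unequally (adjusted p = 6.13e-05), with Qk at rank 8 of 7211 genes and 2.69% of genes called. In that step 1425597_a_at changed by -0.86 relative to the other Qk sets (adjusted p = 0.000123, where 1.22% of 20141 probe sets were called), while the relative changes of 1441964_at (0.49, adjusted p = 0.0632) and 1451179_a_at (0.35, adjusted p = 0.268) were not called. From 1 to 7 days Qk was called again (adjusted p = 0.00396, where 3.87% of genes were), with 1425597_a_at at 0.57 relative to the others (adjusted p = 0.0152, with 2.04% called). With sex as a term the second call ended (adjusted p = 0.0602), and it ended without 1-day replicate 1 or 7-day replicate 3, with adjusted p up to 0.0644. These tests between times were added after the values were seen.

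Against control the same test did not call Qk at any time. Adjusted p was 0.106 immediately, 0.721 at 1 day, 0.618 at 7 days and 1 at 14 days, with 0.416%, 0.541%, 0.208% and 0.0555% of genes called. Immediately after noise the largest relative changes were 0.53 for 1425597_a_at (adjusted p = 0.0820) and -0.42 for 1441964_at (adjusted p = 0.228), in a test that called 0.263% of probe sets. Khdrbs1, with 6 probe sets in the test, and Sf1, with 5, were not called in any of the 7 comparisons; their smallest adjusted p values were 0.422 and 0.293.

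The other 5 Qk probe sets had no call in any comparison. The brightest, 1429318_a_at, had means of 11.31 ± 0.06 (SD, n = 3) in controls, 11.23 ± 0.13 immediately, 11.43 ± 0.07 at 1 day, 11.27 ± 0.05 at 7 days and 11.30 ± 0.14 at 14 days. Its difference from control was -0.073 ± 0.073 immediately, 0.12 ± 0.073 at 1 day, -0.037 ± 0.073 at 7 days and -0.0033 ± 0.073 at 14 days. The 95% interval of the 1-day difference ran from -0.034 to 0.27 and overlapped that of 1451179_a_at, from 0.24 to 0.51. Relative to the other Qk sets, the 1-day change of 1451179_a_at from control was 0.365 and was not called (adjusted p = 0.464, limma diffSplice). For 1417073_a_at, the probe set tied to the curated transcript, controls read 11.23, 10.80 and 10.82 and immediate arrays 11.25, 11.02 and 11.34. The groups overlapped, and the difference of 0.25 ± 0.11 did not pass (adjusted p = 0.327), nor did the step of -0.33 ± 0.11 to 1 day (adjusted p = 0.102).

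The 2 probe sets 1429736_at and 1441964_at were lowest at 7 days, with wide spread. For 1441964_at the values were 7.92, 8.12 and 7.78 in controls, 7.67, 7.58 and 7.56 immediately, 8.27, 8.07 and 7.85 at 1 day, 7.83, 7.61 and 7.09 at 7 days and 7.85, 7.82 and 7.27 at 14 days. Replicate 3 was the lowest array of both the 7-day and the 14-day group, and these groups overlapped the controls, while the immediate arrays lay below them (-0.34 ± 0.17, adjusted p = 0.441). Against control the 7-day differences were -0.43 ± 0.17 for 1441964_at (adjusted p = 0.435) and -0.32 ± 0.13 for 1429736_at (adjusted p = 0.428), in a comparison with 0.0311% of probe sets called and 0 of 21 members. From 1 to 7 days they were -0.55 ± 0.17 (adjusted p = 0.0843) and -0.44 ± 0.13 (adjusted p = 0.0611). The middle control set of 18S ribosomal RNA was also lower at 7 days, at 10.28 to 10.68 against 11.35 to 11.40 at 1 day and 11.31 to 11.91 in controls, and its part in these values was not tested. The last Qk set, 1429735_at, varied within groups by up to 0.26 (SD, at 14 days) and differed from control by -0.16 to -0.01.

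Some Qk probe sets varied alike in pairs over the 15 arrays, given here as a description. Pearson r was 0.85 between 1429736_at and 1441964_at, 0.79 between 1429318_a_at and 1429735_at and 0.72 between 1417073_a_at and 1425597_a_at. With group means removed these were 0.75, 0.91 and 0.63, so the arrays of one group shared them too. The called set 1451179_a_at was in none of these pairs. Its r was 0.61 with 1429318_a_at, 0.59 with 1429736_at and 0.57 with 1441964_at, and 0.40, 0.00095 and 0.12 with group means removed. The 2 called probe sets had r = -0.24 over all arrays but 0.61 with group means removed. They thus varied together among animals of a group while their group means went apart. All these values share the same arrays and RNA.

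**Figure D3:**
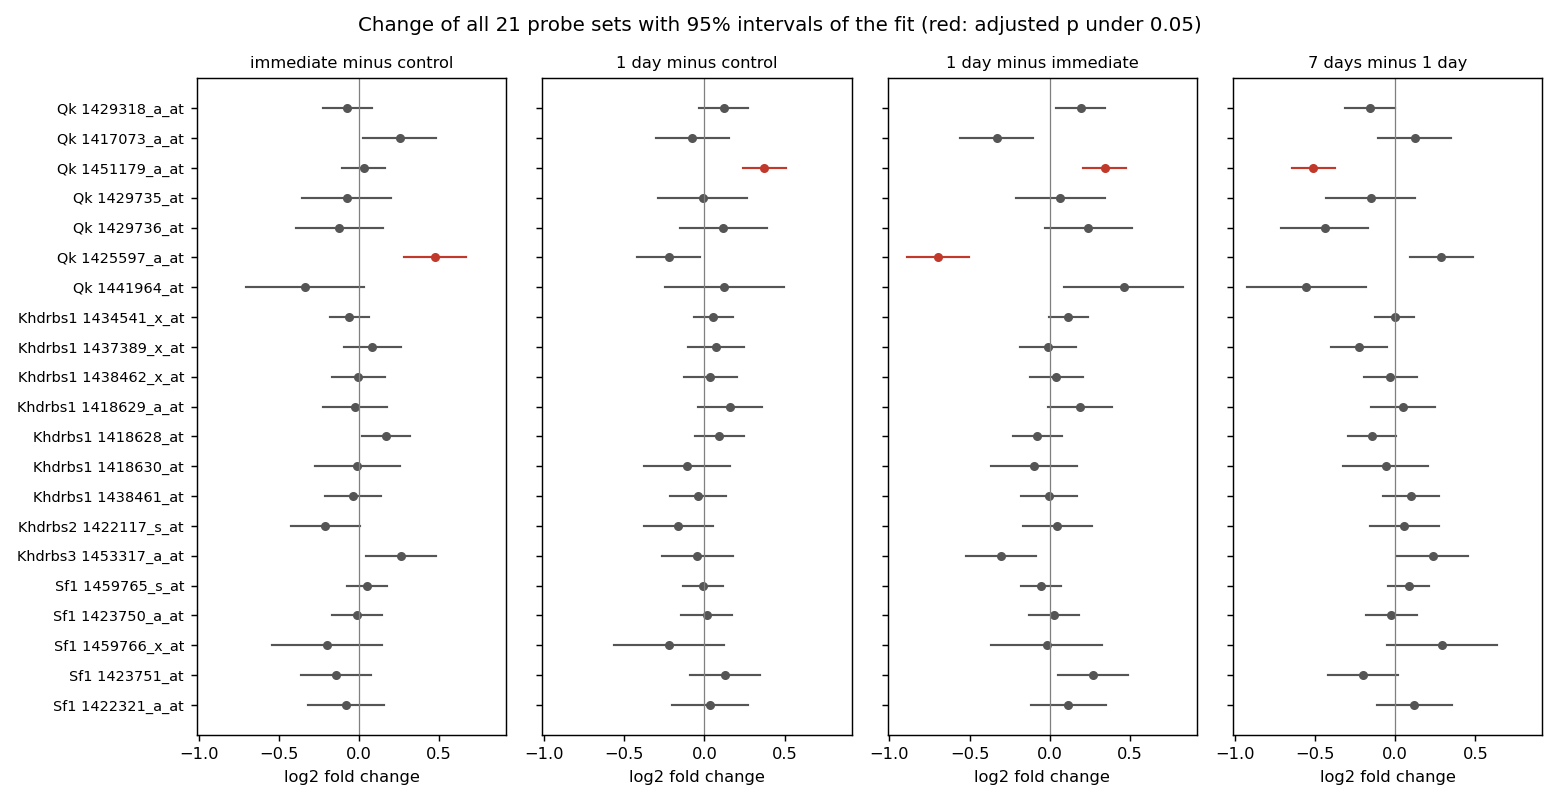
Log2 fold change (horizontal axis) with its 95% interval for each of the 21 probe sets (rows) in 4 comparisons (panels), red where called at an adjusted p under 0.05. The 5 red values all belong to Qk, to 1425597_a_at in the first and the third panel and to 1451179_a_at in all panels but the first.

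Khdrbs3 (T-STAR) had the largest uncalled early difference outside Qk. Its probe set read 7.64, 7.86 and 7.84 in controls, 8.22, 7.94 and 7.96 immediately, 7.69, 7.84 and 7.68 at 1 day, 8.09, 7.88 and 7.94 at 7 days and 7.72, 7.87 and 8.07 at 14 days. All immediate and 7-day arrays lay above the controls and above the 1-day arrays. In the fit the differences from control were 0.26 ± 0.10 immediately (adjusted p = 0.294) and 0.19 ± 0.10 at 7 days (adjusted p = 0.577), and the step from immediate to 1 day was -0.30 ± 0.10 (adjusted p = 0.119). None passed. The order was immediate, 7 days, 14 days, control and 1 day. The neighbours in it that were compared were 7 and 14 days (-0.083 ± 0.10), 14 days and control (0.11 ± 0.10), and 1 day and control (-0.043 ± 0.10). The groups of each such pair overlapped and gave no call. Groups without overlap are common on this array: between immediate and control they made up 18.6% of all probe sets and 5 of 21 members.

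Khdrbs2 gave the opposite picture, also without a call. Controls read 6.64, 6.83 and 6.69, and the immediate arrays, at 6.49, 6.51 and 6.53, lay below all 3. At 1 day the values were 6.73, 6.42 and 6.52, at 7 days 6.57, 6.67 and 6.60, and at 14 days 6.75, 6.43 and 6.60, overlapping the controls at each time. The difference from control was -0.21 ± 0.10 immediately (adjusted p = 0.398), and it was -0.16, -0.11 and -0.13 at the later times. With controls highest and immediate lowest, the groups between them did not differ beyond their spread.

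Khdrbs1, which encodes Sam68, had no called change at any probe set. Group means of 1434541_x_at were 9.55 ± 0.03 (SD, n = 3) in controls, 9.49 ± 0.08 immediately, 9.60 ± 0.03 at 1 day, 9.60 ± 0.04 at 7 days and 9.55 ± 0.07 at 14 days. The differences from control ran from -0.06 to 0.06, and their 95% intervals lay between -0.18 and 0.18. Over all 7 Khdrbs1 probe sets the differences from control ran from -0.22 to 0.21 and 0 were called. Unadjusted p was under 0.05 for 1418628_at immediately (0.17 ± 0.071, adjusted p = 0.321), for 1418629_a_at at 7 days (0.21 ± 0.094, adjusted p = 0.480) and for 1437389_x_at from 1 to 7 days (-0.22 ± 0.083, adjusted p = 0.142).

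Sf1, the branch point factor, had none either. Its brightest probe set, 1459765_s_at, had group means between 12.33 and 12.41, differences from control between -0.0067 and 0.077, and 95% intervals within -0.13 and 0.20. The arrays of all groups overlapped with the controls. Across the 5 Sf1 probe sets 0 were called in any comparison, and the only unadjusted p under 0.05 was that of 1423751_at from immediate to 1 day (0.27 ± 0.10, adjusted p = 0.169). The widest spread was in 1459766_x_at, where 1 array, 7-day replicate 2, read 8.22 and the other 2 of its group 7.44 and 7.55.

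**Figure D4:**
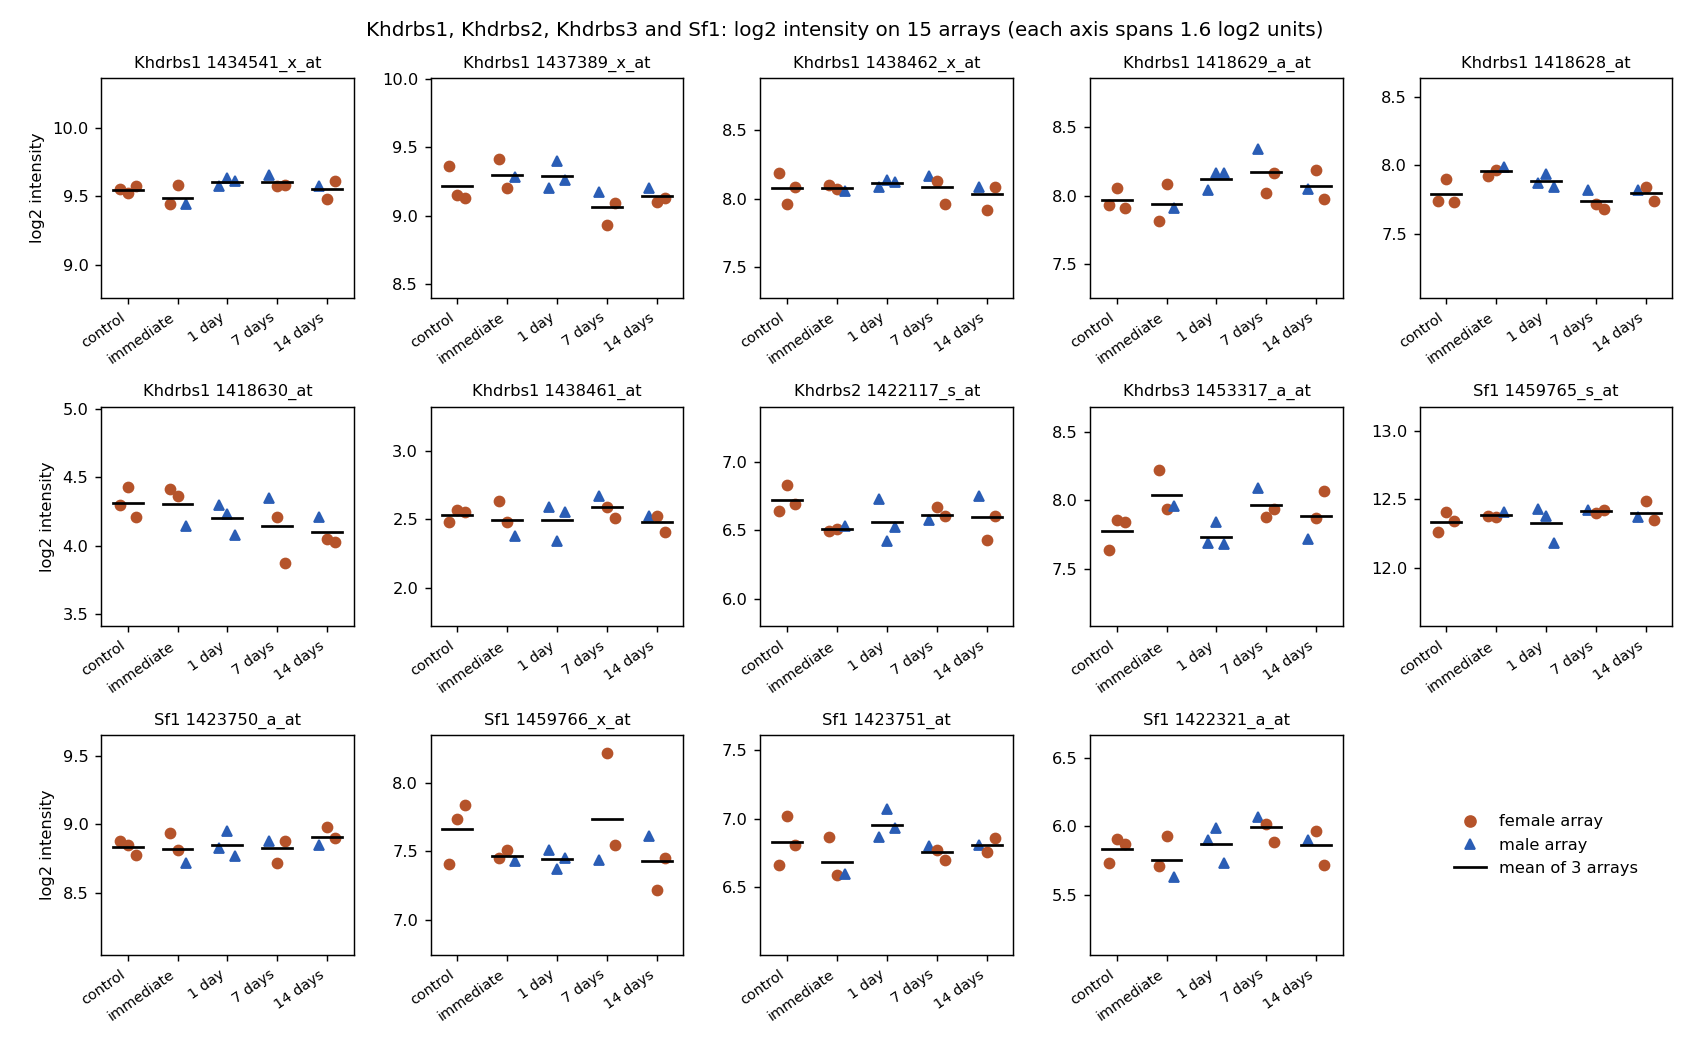
Log2 intensity (vertical axis) of the 14 probe sets of Khdrbs1, Khdrbs2, Khdrbs3 and Sf1 on 15 arrays by group (horizontal axis), with points for arrays (circles female, triangles male) and bars for means of 3. Arrays of most groups overlap, with the mean of Khdrbs3 at 8.04 immediately against 7.78 in controls and 0 probe sets called.

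At 14 days no member was called. With 0 of 45037 probe sets called at that time in limma, and 3318 (7.37%) at unadjusted p under 0.05, the 21 members had 0 called and 0 at unadjusted p under 0.05. Their differences from control ran from -0.29 to 0.11 with a median of -0.03. From 7 to 14 days 0 probe sets were called as well, in limma or in its test of unequal change. At unadjusted p under 0.05, which 1224 probe sets (2.72%) had, 1425597_a_at was the only member (-0.25 ± 0.092, adjusted p = 0.999).

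Transcripts known as targets of Quaking had some calls but no common direction. The list held 11 genes, 10 of them measured by 29 probe sets. Over all probe sets 0.413% were called immediately, 1.14% at 1 day, 3.88% from immediate to 1 day and 4.66% from 1 to 7 days. The share called in the list was larger in each of these, with several calls from the same gene. The list is bright, with a median percentile of 97.0 by the brightest probe set of each gene. With the lowest 50% of all probe sets left out, 309 of 22517 were called immediately and 680 at 1 day. From immediate to 1 day 2142 were called, and 2470 from 1 to 7 days. Shares among brighter probe sets were thus larger than over all, and the list was not tested against them. Map1b, a microtubule protein of growing axons, rose immediately (0.52 ± 0.098, adjusted p = 0.0297). At 1 day 2 probe sets of Cnp, an enzyme of noncompact myelin, fell (by 0.30 and 0.24 on the log2 scale). From immediate to 1 day 2 probe sets rose, both of the splicing repressor Hnrnpa1 (0.37 ± 0.076 and 0.22 ± 0.055), and 4 fell, 2 of Map1b, 1 of the cell cycle inhibitor Cdkn1b (-0.47 ± 0.088) and 1 of Cnp. From 1 to 7 days both Hnrnpa1 sets fell and both Cnp sets rose. Medians of the list against control were 0.053, -0.01, 0.04 and 0.057 over the 4 times, beside -0.017, -0.01, 0.0067 and 0.0033 over all probe sets. Mbp, the myelin basic protein and the most studied Quaking target, had no probe set called in any comparison.

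Other splicing genes also had some calls. Over all probe sets 0.413% were called immediately, 1.14% at 1 day, 3.88% from immediate to 1 day and 4.66% from 1 to 7 days. Splicing regulators of nerve and muscle had larger shares than these immediately and from immediate to 1 day, and the branch point list from 1 to 7 days. Other shares were near or below those over all probe sets. Both lists are bright, with median percentiles of 90.5 and 90.1 by the brightest probe set of each gene. With the lowest 50% of all probe sets left out, 309 of 22517 were called immediately, 2142 from immediate to 1 day and 2470 from 1 to 7 days. Shares among brighter probe sets were thus larger, and the lists were not tested against them. Of 29 probe sets for 11 proteins that recognise the branch point and 3' splice site together with Sf1, 0 were called against control at any time. From immediate to 1 day 1 rose, of Puf60 (0.56 ± 0.13), and from 1 to 7 days 3 fell, of Rbm17 (-0.34 ± 0.072), Sf3b1 (-0.30 ± 0.057) and Sf3b2 (-0.30 ± 0.069). Splicing regulators of nerve and muscle had 60 probe sets for 19 genes. The neuronal RNA-binding gene Elavl2 rose immediately at 2 probe sets (0.52 ± 0.091 and 0.51 ± 0.081) and Celf2 at 1 day (0.26 ± 0.059). Of the 60, 1 rose and 5 fell from immediate to 1 day. From 1 to 7 days 2 rose, of Elavl4 (0.32 ± 0.077) and Mbnl2 (0.30 ± 0.071), and Celf2 fell (-0.39 ± 0.059). Kinases and a methyltransferase that modify STAR proteins, Fyn and Src among them, had 0 of 11 probe sets called in any comparison. Medians of these 3 lists against control lay between -0.047 and 0.06.

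The probe sets whose pattern over the 15 arrays was most like that of a member were named by Pearson r, as a description of arrays that share their RNA. For the brightest Qk probe set these were 1 probe set each of Cgrrf1 (r = 0.86), Ap2a2 (0.86) and Ralgapa1 (0.85), another of Cgrrf1 (0.82) and Usp47 (0.82). The called Qk set 1425597_a_at was nearest to Zfp638 (0.93), Ttc14 (0.92), Clasp2 (0.91), Rgs2 (0.91) and Xpr1 (0.89). The other called set, 1451179_a_at, was nearest to Riok3 (0.94), Snhg1 (0.94), Eprs (0.94), Plekho1 (0.93) and Eif3c (0.93). The 3 lists for Qk had no gene in common. For Khdrbs3 the nearest were Ddhd1 (0.90), Usp8 (0.88) and Trak1 (0.86), for Khdrbs2 Hnf4a (0.87), for Sf1 Phc2 (0.89) and for Khdrbs1 Nudc (0.81).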

How the data were processed

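RNA from 15 animals was labelled (50 ng total RNA per array, Affymetrix 3' IVT Express kit, per the labels) and deposited as log2 intensities per probe set, from 2.06 to 14.63 with 0 missing. Per the submitters' processing notes RMA, MAS5 and Affymetrix Expression Console were used, with no version named. Which of them gave the deposited values is not stated in the sources used here. Values near background are compressed, which understates changes of dim probe sets. No 2 arrays shared more than 3.67% of identical values. With 3 arrays a group, standard errors of member differences ran from 0.057 to 0.17.

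Of 45101 probe sets, 34945 had 1 gene symbol in the platform annotation, 932 several, 9160 none, and 64 were array controls, which were left out. Every other probe set was fitted apart, with no filter, in limma 3.58.1 (R 4.3.3; lmFit, eBayes with trend) over all 15 arrays, with 10 residual degrees of freedom, two-sided and adjusted within each of 7 contrasts. Unequal change within a gene was tested with diffSplice. The functions were tested on simulated data, and plots used matplotlib 3.10.9.

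The members, gene lists and tests were chosen with earlier results of these data known. Described with changes were probe sets called in a contrast or with an unadjusted p under 0.05, and the brightest of each gene; likeness was the 5 highest Pearson r among 1-gene probe sets of other genes above the lowest 25%, repeated for called Qk sets after their values were seen. Alternatives that changed a call or a count are given in the closing section. Same-numbered arrays of different groups correlated from -0.28 to 0.30 in their deviations (median 0.046), above 0.1 in 11 of 30 pairs. Differently numbered ones ran from -0.48 to 0.24 (median -0.017), above 0.1 in 13 of 60. These values do not settle whether the numbers pair arrays. The main fit did not take them as pairing, and a replicate block was an alternative.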

Additional observations from a re-analysis of the deposited data

Results flagged for a closer look

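Changes from control that differed between time points, by the direct test between those times, were found for 2 Qk probe sets. For 1425597_a_at the 1-day change differed from the immediate one by -0.70 (adjusted p = 0.000809, limma), with every immediate array above and every 1-day array below all controls. For 1451179_a_at the 1-day change differed from the immediate one by 0.34 (adjusted p = 0.00793, limma), and the 7-day change differed from the 1-day one by -0.51 (adjusted p = 0.000587, limma), with 3 of 3 arrays of 1 day above all others. Groups of 3 arrays are too small to test single arrays as outliers.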

How the results depend on the processing

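Member counts in the 7 comparisons were, in order, 1, 1, 0 and 0 against control (immediate, 1, 7 and 14 days) and 2, 1 and 0 between consecutive times. With sex as a term the immediate and 1-day counts were 0 and 0. The immediate count was also 0 in female arrays alone, without the eBayes trend (adjusted p = 0.0658 for 1425597_a_at) and with only the 2 groups compared. With 1 probe set per gene, which by construction leaves out both called Qk sets, the immediate, 1-day, immediate to 1-day, 1 to 7-day and F test counts were all 0. An unadjusted p under 0.05 with 1.5-fold gave 0, 0, 1 and 0 in the same 4 comparisons. From 1 to 7 days the count was 2 with the lowest 50% left out and 3 with the replicate block, which added 1429736_at and 1441964_at; under the block Qk also changed unequally immediately after noise (adjusted p = 0.00854), and 1441964_at rose from immediate to 1 day (adjusted p = 0.0339). With sex as a term unequal change of Qk from 1 to 7 days was not called (adjusted p = 0.0602). Leaving out each array gave 0 to 1 immediately, 0 to 1 at 1 day, 2 to 3 from immediate to 1 day and 1 to 3 from 1 to 7 days (3 without 7-day replicate 1, 2 without 14-day replicate 1), and adjusted p of 0.00119 to 0.0644 for unequal change of Qk from 1 to 7 days. The F test count stayed at 2 with each array left out. The cause of these shifts was not tested. Small uncalled values turned sign: Khdrbs3 at 1 day was 0.02 with sex as a term, Khdrbs1 1434541_x_at at 14 days was -0.0017 in females, -0.0021 after quantile normalization and -0.01 at a common 75th percentile, and Qk 1429318_a_at at 14 days was 0.043 in females. Leaving out arrays gave -0.022 to 0.043 for that Khdrbs1 value, -0.082 to 0.043 for that Qk value and -0.057 to 0.068 for Sf1 1459765_s_at at 1 day. Over all probe sets the number called at 1 day was 515, or 34 with sex as a term. Female arrays held no 1-day group, so its comparisons could not be run there. Apart from leaving out arrays, 164 of 182 summary values and 472 of 487 single probe set values were scored as kept. For single values this meant the same direction and side of the threshold, and for tests of unequal change the same side. Counts were scored as kept within a 1.5-fold shift, so a count going from 2 to 3 was kept.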

Other observations

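The Qk probe sets 1429735_at and 1429736_at are linked by the annotation to the same expressed sequence tag, yet they did not vary alike. Over the 15 arrays Pearson r between them was -0.19, and with group means removed it was -0.65. Likewise 1429735_at had r = -0.61 with 1441964_at when group means were removed. On 14-day replicate 3 the 2 sets read 9.46 and 7.80, and on 14-day replicate 1 they read 9.06 and 8.26.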
